A study of Mus musculus with 6 samples.

Results

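The genes described here encode the nuclear subunits of the mitochondrial respiratory chain, measured in teratomas injected with a miR-124a-3p mimic or with a miRNA negative control. They were taken by gene name, as every array feature whose name follows the naming pattern of the Nduf, Sdh, Uqcr, Cox4 to Cox8 and Atp5 families. These families were chosen with earlier results of these data known. The pattern took 84 of 37001 named genes, on 129 of 56583 probes, and 83 of the 84 passed the filter on dim signals, each well above background on all 6 arrays. It covers 81 subunit genes in the 5 complexes. Another 3 names are not subunits: Dmac2 and Dmac2l, which carry older Atp5 names, and the pseudogene Atp5c1-ps. Subunits outside the pattern come last, from separate lists, and Cox5b was not analysed here.

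Each group held 3 tumours. The miR-124a tumours received a mimic of miR-124a-3p and the control tumours a negative control miRNA, both complexed with Atelogen QG. Doses of 15 µg in 100 µL were given intratumorally, with 3 days between injections, up to day 28. All tumours grew from mouse embryonic stem cells under the skin of BALB/c nude mice, which were randomised between the groups, and injections began once a tumour measured 100 mm3. Teratomas hold a mixture of tissues, RNA came from 1 of 2 pieces of each, and the cell types within a piece were not separated. A lower signal may therefore reflect fewer cells of a type or less RNA per cell, and these cannot be told apart.

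The respiratory chain moves electrons from NADH and succinate to oxygen through complexes I to IV of the inner mitochondrial membrane and pumps protons as it does so. Complex V, the ATP synthase, uses the proton gradient to make ATP. Most subunits are made from nuclear genes in all tissues, but complex IV, cytochrome c oxidase, has subunits with alternative isoforms: Cox6a2, Cox7a1 and Cox8b are the forms of heart and skeletal muscle, and Cox6a1, Cox7a2 and Cox8a their widely expressed partners. Muscle cells are rich in mitochondria. MiR-124a is a miRNA of the nervous system, and the comparison asked how its mimic altered gene expression in the tumours.

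All 6 arrays lay on 1 slide, with 63.4% to 65.9% of probes well above background and 0 saturated spots. The miR-124a tumours occupied slide row 2 and the control tumours slide row 1, so that row and treatment cannot be told apart for any value below. Signals are given relative to the 75th percentile of the same array, called the relative signal, and changes as log2 fold changes, miR-124a minus control, with the standard error (SE) from limma. A change was called at a Benjamini-Hochberg adjusted p under 0.05 over 22946 genes. Values of different probes are not compared as levels.

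Of the 83 genes tested, 2 were called lower in miR-124a tumours (2.41%) and 0 higher. Over all genes tested, 2.75% were called lower and 0.488% higher (3.23% in either direction), so the share of calls was near that background. Both calls were muscle isoforms of complex IV, Cox6a2 and Cox8b, and the muscle isoform Cox7a1 lay just outside the threshold. The 84th gene, Cox8c, was not tested. Across the subunits most differences were small and ran 1 way: 77 of 80 subunit genes (96.2%, and 71 under quantile scaling) had a lower value in miR-124a tumours, against 50.3% of all genes, and the median log2 fold change of the 83 genes was -0.34, against -0.0022 for all genes. In the brightest decile of signal, where 71 of the 83 lie, the median over all genes was -0.14.

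Cox6a2, the heart and muscle form of subunit VIa, had a relative signal of 9.59, 10.2 and 15.5 in miR-124a tumours 1 to 3, against 38.1, 55.9 and 29.8 in control tumours 1 to 3. Every miR-124a tumour lay below every control tumour. Cox6a2 fell by 1.80 ± 0.28 on the log2 scale (SE, 3 tumours each), or 3.47-fold lower, with an adjusted p of 0.0352 by limma. Its 1 probe lies at chr7:135349160-135349219 of mm9, the build of the array annotation.

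Cox8b, the muscle form of subunit VIII, had a relative signal of 4.94, 4.599 and 8.83 in miR-124a tumours, against 18.2, 30.3 and 18.0 in control tumours. The groups again did not overlap. It fell by 1.88 ± 0.32, or 3.67-fold lower, with an adjusted p of 0.0400 (probe at chr7:148084852-148084911, mm9). Without miR-124a tumour 1 or 2, or without control tumour 1 or 2, neither gene was called. Of all genes, 1, 0, 13 and 0 were then called, in that order, against 742 with all tumours. Without control tumour 3 only Cox6a2 was called among the 83, and 353 of all genes were.

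Cox7a1, the muscle form of subunit VIIa, had a relative signal of 3.01, 2.71 and 5.26 in miR-124a tumours, against 8.99, 16.9 and 10.4 in control tumours. The groups did not overlap, the log2 fold change was -1.73 ± 0.33, or 3.33-fold lower, and the adjusted p was 0.0509, so that it was not called (probe at chr7:30970337-30970948, mm9). In all 3 muscle isoforms miR-124a tumour 3 was the highest of its group and control tumour 2 the highest of all.

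The widely expressed partners differed less. Cox6a1 had a relative signal of 125, 135 and 122 in miR-124a tumours, against 136, 138 and 118 in control tumours, and a log2 fold change of -0.04 ± 0.10 that turned to 0.18 under quantile scaling. Cox7a2 had 21.7, 24.8 and 25.0 in miR-124a tumours, against 26.8, 30.8 and 25.3 in control tumours (-0.21 ± 0.12, adjusted p = 0.287). Cox8a had 72.9, 80.6 and 74.6 in miR-124a tumours, against 91.3, 99.8 and 77.5 in control tumours (-0.23 ± 0.12, adjusted p = 0.268), and its sign also turned under quantile scaling (0.02). Only Cox7a2 of these partners had groups that did not overlap.

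**Figure D1:**
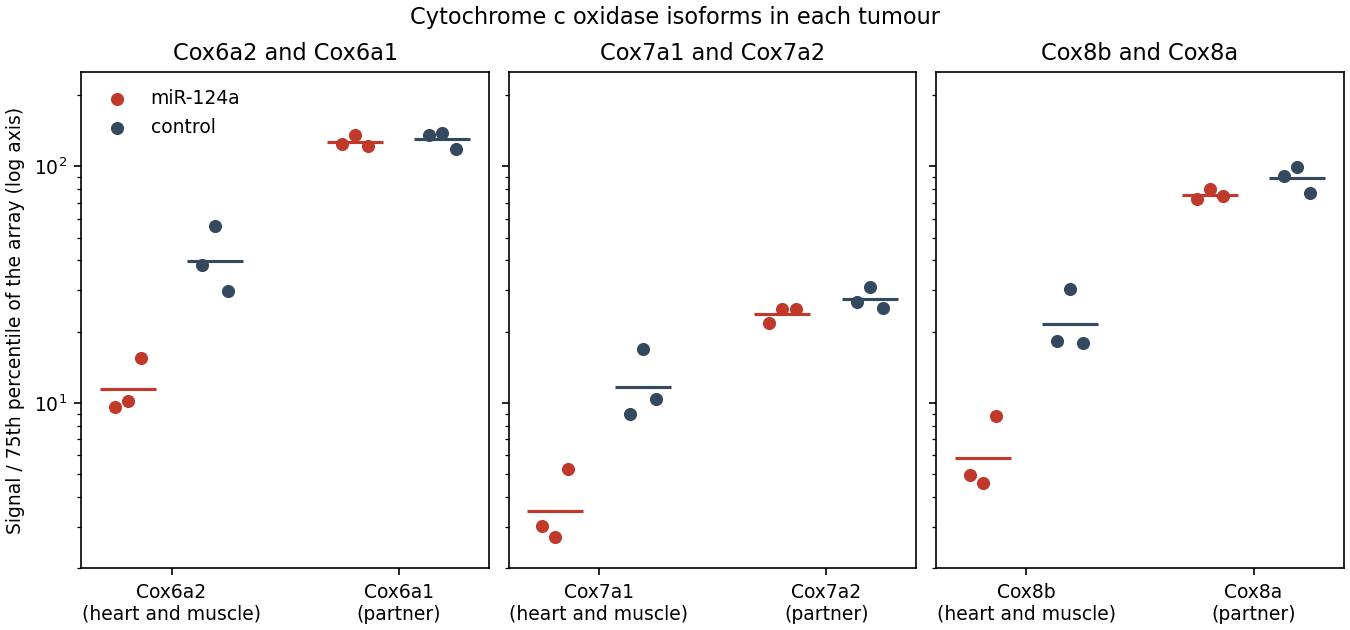
Relative signal (signal over the array's 75th percentile, log axis) of the muscle isoforms Cox6a2, Cox7a1 and Cox8b and of their partners Cox6a1, Cox7a2 and Cox8a, one point per tumour, with miR-124a left of control and lines at the mean of the log2 values. The muscle isoforms lie lower in all 3 miR-124a tumours than in any control tumour, while Cox6a1 and Cox8a overlap between the groups.

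The plot of isoforms by tumour sets each muscle isoform beside its partner. A ratio of the isoforms within a tumour does not depend on how the arrays are scaled by a constant, so the difference in that ratio between the groups was tested for 8 isoform pairs. The log2 ratio of Cox6a2 to Cox6a1 in miR-124a tumours differed by -1.76 from that in control tumours, that of Cox7a1 to Cox7a2 differed by -1.53 and that of Cox8b to Cox8a by -1.65. In each of these pairs the groups did not overlap and the exact two-sided permutation p was 0.1, the smallest that 20 splits allow (0.2 after Benjamini-Hochberg adjustment over the 8 pairs). With 3 tumours against 3 no pair could pass 0.05.

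The remaining pairs differed in the other direction or by less. Ndufa4l2, a gene known to be induced by hypoxia, differed by 0.41 relative to Ndufa4, without overlap (exact permutation p = 0.1, adjusted 0.2). Ndufa4 was first assigned to complex I and later found in complex IV. Cox4i2, a lung and hypoxia form, differed by 0.36 relative to Cox4i1 (exact permutation p = 0.2, adjusted 0.32). The testis forms Cox6b2 and Cox7b2 differed by 0.35 and 0.50 relative to Cox6b1 and Cox7b (exact permutation p = 0.3 each, adjusted 0.343). Atp5g1 and Atp5g3, a pair of genes for an identical mature subunit c of ATP synthase, differed by 0.02 relative to each other (exact permutation p = 0.9). The ratios of these last 4 pairs overlapped between the groups.

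The promoters of the muscle isoforms and their partners are shown because the genes of a pair differed in their change. Each is the 250 bases before the annotated start, 5′ to 3′ on the gene's strand, from RefSeq on GRCm38.p6, and the Cox6a2 promoter is not shown. Capitals mark CANNTG, the E-box letters that the muscle factors MyoD and myogenin are known to bind, read on both strands, and CCGGAA or its reverse complement TTCCGG, the core letters of ETS-family factors such as NRF-2 (GABP), a known regulator of cytochrome c oxidase genes.
Cox8b, chr7:140900447-140900696, minus strand: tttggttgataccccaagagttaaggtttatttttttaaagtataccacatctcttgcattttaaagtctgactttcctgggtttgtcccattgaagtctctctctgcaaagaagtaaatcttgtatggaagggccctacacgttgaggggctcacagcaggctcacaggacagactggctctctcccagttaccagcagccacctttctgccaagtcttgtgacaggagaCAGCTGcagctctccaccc
Cox7a1, chr7:30183921-30184170, plus strand: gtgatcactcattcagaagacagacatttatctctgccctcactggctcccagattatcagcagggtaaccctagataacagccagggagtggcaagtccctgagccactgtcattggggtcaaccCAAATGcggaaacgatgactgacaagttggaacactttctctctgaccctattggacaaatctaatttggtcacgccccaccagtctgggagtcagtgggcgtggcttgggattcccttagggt
Cox6a1, chr5:115348959-115349208, minus strand: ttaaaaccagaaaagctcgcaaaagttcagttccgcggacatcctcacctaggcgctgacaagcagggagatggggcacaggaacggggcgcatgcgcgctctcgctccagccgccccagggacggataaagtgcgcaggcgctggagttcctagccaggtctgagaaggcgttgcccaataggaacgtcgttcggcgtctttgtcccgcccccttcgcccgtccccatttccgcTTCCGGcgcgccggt
Cox8a, chr19:7217617-7217866, minus strand: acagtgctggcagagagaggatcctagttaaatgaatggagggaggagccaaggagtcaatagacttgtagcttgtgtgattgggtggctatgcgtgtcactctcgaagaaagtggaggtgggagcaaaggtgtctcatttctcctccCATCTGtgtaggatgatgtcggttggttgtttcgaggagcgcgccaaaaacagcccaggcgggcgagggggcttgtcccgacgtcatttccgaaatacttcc
Cox7a2, chr9:79759854-79760103, minus strand: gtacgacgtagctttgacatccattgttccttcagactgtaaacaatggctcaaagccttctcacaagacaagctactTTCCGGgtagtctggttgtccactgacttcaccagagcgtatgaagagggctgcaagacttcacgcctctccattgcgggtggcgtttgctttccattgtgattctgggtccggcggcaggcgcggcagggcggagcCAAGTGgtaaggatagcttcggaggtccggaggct

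Of the 5 promoters, 4 held 1 CANNTG each and Cox6a1 held 0. In Cox8b it reads CAGCTG, the form preferred by the myogenic factors, and begins 19 bases before the start, whereas it begins at 124 bases in Cox7a1, 102 in Cox8a and 35 in Cox7a2. CCGGAA or its reverse complement begins at 15 bases in Cox6a1 and 172 in Cox7a2. CANNTG is short and common: 62.1% of the 66 subunit genes with a promoter in the table hold it, against 69.3% of 27025 genes in the same window. CAGCTG, which is contained in CANNTG, was in 6 of the 66 (9.1%), namely Ndufb10, Ndufv2, Ndufs5, Ndufa8, Cox8b and Atp5b, against 14.7% of all genes. CCGGAA was in 20 of the 66 (30.3%), against 13.6% of all genes. A match is a description of letters in this window and says nothing of binding in these tumours.

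Beside the muscle isoforms, most muscle markers of the tumours differed in the same direction. Of 22 skeletal muscle markers, all tested, 18 were called lower and 0 higher, against 2.75% and 0.488% of all genes. All 22 had lower values without overlap, against 20.6% of all genes, with a median log2 fold change of -1.65. Myog and Myod1, the transcription factors that drive muscle differentiation, fell by 1.65 and 1.99 (adjusted p = 0.0170 and 0.0211 by limma), and the calcium channel Ryr1 and the acetylcholine receptor subunit Chrna1 by 1.69 and 1.77 (adjusted p = 0.0211 each). The summed relative signal of the 22 markers was 393 to 589 in miR-124a tumours, against 1049 to 1571 in control tumours, and all 22 were well above background on all 6 arrays. Of 17 cardiac markers, 15 were tested, with a median of -1.39. Actc1, Tnnc1, Tnnt2, Myl3 and Myl4 were called lower (5 of 15, against 2.75% of all genes) and 0 higher. The list does not separate genes restricted to the heart from those that skeletal muscle also expresses. Hcn4 and Ryr2, a pacemaker channel and a calcium channel of the heart, had higher values (0.67 and 0.75, adjusted p = 0.0664 and 0.147), and Myh7 and Nppa differed by -0.03 and -0.10. Myl2 and Nkx2-5 were lower without overlap but not called. Myh6, Myl7, Mybpc3 and Tnni3 had lower values, from -2.89 to -1.14, that overlapped between the groups and were not called. In each of them control tumour 2 read no higher than the highest miR-124a tumour. The summed signal of the cardiac markers was 64.7 to 81.8 in miR-124a tumours and 170 to 243 in control tumours. Myl4 alone read 40.0, 42.3 and 50.6 in miR-124a tumours, against 118, 165 and 97.3 in control tumours. The cardiac gene Pln was not well above background on any array, and Nppb was not tested. Without miR-124a tumour 1 or 2, or without control tumour 1 or 2, 0 skeletal and 0 cardiac markers were called, while the skeletal median stayed between -1.70 and -1.55. Of all genes, 1, 0, 13 and 0 were called in these fits, in that order. Without control tumour 3, 11 skeletal and 3 cardiac markers were called (353 of all genes), and without miR-124a tumour 3, 19 and 5 (375 of all genes). With the replicate block 0 of either list were called, and with no filter on dim probes 1 skeletal and 2 cardiac markers. The part of muscle content in the isoform result was not tested.

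The highest tumour of each group was mostly the same in the muscle markers and the muscle isoforms. MiR-124a tumour 3 was the highest of its group in 21 of 22 skeletal markers and in Cox6a2, Cox7a1 and Cox8b. Control tumour 2 was the highest control in 17 of 22 markers and in all 3 isoforms, but also in 70 of the 77 other subunit genes. The lowest tumours were shared less. Control tumour 3 was the lowest control in 19 of 22 markers and in Cox6a2 and Cox8b, but control tumour 1 was in Cox7a1. MiR-124a tumour 1 was the lowest of its group in 13 markers and in Cox6a2, and tumour 2 in 9 markers and in Cox7a1 and Cox8b.

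The other subunits were described by complex. None of the 77 subunit genes tested apart from Cox6a2, Cox7a1 and Cox8b was called. The smallest adjusted p among them was 0.0524, for Cox7c (limma), and 48 of the 77 had an unadjusted p under 0.05, as did 27.3% of all genes. Of the 77, 59 were lower in every miR-124a tumour than in any control tumour, and 0 were higher. With the muscle isoforms and the names that are not subunits, 63 of 83 genes (75.9%) were lower without overlap, against 20.6% of all genes, and 0 were higher without overlap, against 15% of all genes. In the brightest decile of signal, where 71 of the 83 lie, 44.9% of genes were lower without overlap.

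**Figure D2:**
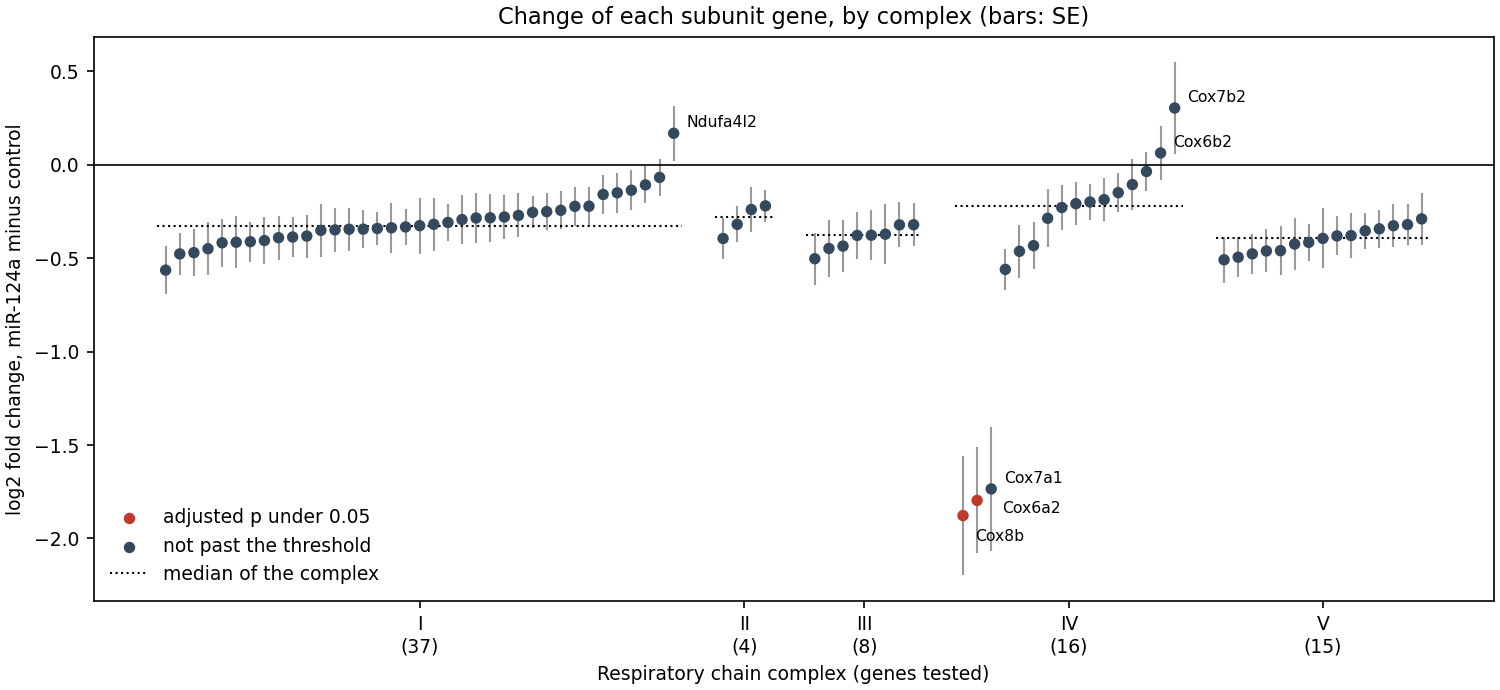
Log2 fold change (miR-124a minus control) of each of the 80 subunit genes tested, grouped by complex and sorted, with bars for the SE and dotted lines at the complex medians, which run from -0.39 in complex V to -0.22 in complex IV. Cox6a2 and Cox8b, past an adjusted p of 0.05, and Cox7a1 lie near -1.8, and all the other genes between -0.56 and 0.30.

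Complex I, NADH dehydrogenase, had 37 genes, all tested. 36 had a lower value, and the median was -0.33 (-0.16 under quantile scaling). Of the 36, 30 did not overlap, while 20.6% of all genes and 44.9% of the brightest decile of signal were lower without overlap. Ndufb7, an accessory subunit facing the intermembrane space, had a relative signal of 27.4, 29.0 and 30.05 in miR-124a tumours, against 41.6, 49.7 and 37.3 in control tumours (-0.56 ± 0.13, adjusted p = 0.0684). Its miR-124a values lay close together and below all the control values.

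The 7 nuclear core subunits, which hold the flavin and iron-sulphur centres of electron transfer, were each lower without overlap, with a median of -0.41. Of all genes 20.6% were lower without overlap, and of those in the brightest decile of signal, where the core subunits lie, 44.9%. Ndufs1, the largest core subunit, had 11.2, 11.6 and 11.53 in miR-124a tumours, against 14.6, 15.3 and 13.6 in control tumours (-0.34 ± 0.09, adjusted p = 0.0826). Its other tested probe gave a change of 0.13, of the opposite sign. Ndufs8, an iron-sulphur subunit, had 15.5, 16.3 and 15.9 in miR-124a tumours, against 22.2, 22.7 and 18.7 in control tumours (-0.41 ± 0.11, adjusted p = 0.0835). Among the other core subunits, Ndufv1 differed by -0.47, Ndufs7 by -0.41, Ndufv2 by -0.35 (0.11 at its other tested probe) and Ndufs3 by -0.33.

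The 28 accessory subunits of complex I ran from -0.56 in Ndufb7 to -0.07 in Ndufa11, with a median of -0.30. Lower without overlap were 22 of them, against 20.6% of all genes and 44.9% of the brightest decile. Ndufa5, Ndufs6 and Ndufc2 had small values of -0.16, -0.15 and -0.11 that turned positive under quantile scaling (0.04, 0.03 and 0.06). Ndufa4l2 was the only gene of complex I with a higher value: its relative signal was 1.88, 2.40 and 2.45 in miR-124a tumours, against 2.21, 1.98 and 1.78 in control tumours (0.17 ± 0.15, adjusted p = 0.485). The groups of Ndufa4l2 overlapped. Ndufa4 had 19.5, 21.2 and 22.3 in miR-124a tumours, against 23.3, 26.9 and 24.4 in control tumours (-0.24 ± 0.10, adjusted p = 0.186).

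Complex II, succinate dehydrogenase, links the chain to the citric acid cycle. All 4 genes had a lower value, with a median of -0.28 (-0.19 under quantile scaling). Lower without overlap were 3 of them, against 20.6% of all genes and 44.9% of the brightest decile of signal. Sdhc, a membrane anchor, had a relative signal of 5.23, 5.94 and 5.79 in miR-124a tumours, against 7.33, 8.24 and 6.78 in control tumours (-0.39 ± 0.11, adjusted p = 0.0959). Sdhd, the other anchor, had 10.7, 11.8 and 12.4 in miR-124a tumours, against 14.2, 15.2 and 14.1 in control tumours (-0.32 ± 0.10, adjusted p = 0.108). Both anchors separated the groups. Sdha, the flavoprotein, had 9.45, 9.85 and 10.1 in miR-124a tumours, against 11.3, 11.9 and 11.01 in control tumours (-0.22 ± 0.09, adjusted p = 0.163). Sdhb, the iron-sulphur subunit, had 30.2, 33.4 and 29.9 in miR-124a tumours, against 35.9, 42.2 and 32.8 in control tumours (-0.24 ± 0.12, adjusted p = 0.255), and its groups overlapped.

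Complex III, which passes electrons from ubiquinol to cytochrome c, had 8 genes. All had a lower value, with a median of -0.38 (-0.19 under quantile scaling). Lower without overlap were 7 of them, against 20.6% of all genes and 44.9% of the brightest decile of signal. Uqcrfs1, the Rieske iron-sulphur protein of the catalytic centre, had a relative signal of 11.4, 13.1 and 13.4 in miR-124a tumours, against 16.7, 21.2 and 16.1 in control tumours (-0.50 ± 0.14, adjusted p = 0.0929). Uqcr11, a small subunit, had 33.5, 36.3 and 37.2 in miR-124a tumours, against 48.1, 56.7 and 41.1 in control tumours (-0.44 ± 0.14, adjusted p = 0.116). Uqcrb, a small subunit near the quinone site, had 18.3, 21.8 and 19.7 in miR-124a tumours, against 26.3, 28.7 and 22.8 in control tumours (-0.38 ± 0.12, adjusted p = 0.123), but its probes ranged from -0.42 to 0.42.

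Uqcrc1, a core protein of complex III, had 14.5, 16.1 and 17.2 in miR-124a tumours, against 20.1, 26.5 and 19.1 in control tumours (-0.45 ± 0.15, adjusted p = 0.130). The smallest difference of the complex was that of Uqcr10, with 42.9, 50.6 and 48.5 in miR-124a tumours, against 61.4, 63.2 and 52.9 in control tumours (-0.32 ± 0.12, adjusted p = 0.145). Uqcrq was the gene of complex III whose groups overlapped.

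Complex IV, cytochrome c oxidase, had the widest range, from -1.88 in Cox8b to 0.30 in Cox7b2, over 16 tested genes. The median was -0.22 (-0.09 under quantile scaling), and 14 genes had a lower value. Lower without overlap were 8 of the 16, against 20.6% of all genes and 44.9% of the brightest decile of signal. Apart from the muscle isoforms, Cox7c, a small subunit found in all tissues, had a relative signal of 13.1, 13.7 and 13.8 in miR-124a tumours, against 19.5, 22.5 and 18.1 in control tumours (-0.56 ± 0.11, adjusted p = 0.0524). Cox4i1, the usual form of subunit IV, which binds adenine nucleotides, had 42.6, 44.6 and 44.3 in miR-124a tumours, against 55.0, 74.2 and 54.1 in control tumours (-0.46 ± 0.14, adjusted p = 0.111). In both genes the 3 miR-124a tumours lay within a narrow band below the controls.

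Cox5a (-0.43) and Cox7b (-0.20) were also lower without overlap. Cox7b had 17.3, 19.1 and 19.9 in miR-124a tumours, against 22.1, 22.1 and 20.3 in control tumours. Cox6b1 had 4.64, 5.67 and 5.30 in miR-124a tumours, against 6.20, 7.62 and 5.37 in control tumours, a difference of -0.29 ± 0.16 with overlapping groups. Cox6c (-0.19) and Cox7a2l, a supercomplex assembly protein (-0.15), overlapped too, and Cox7a2l turned to 0.02 under quantile scaling and Cox6c to 0.0079 with normexp background correction.

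The dim isoforms of complex IV showed no difference beyond their spread. Cox4i2 had a relative signal of 0.254, 0.290 and 0.298 in miR-124a tumours, against 0.335, 0.318 and 0.257 in control tumours (-0.11 ± 0.13, adjusted p = 0.637). The testis isoform Cox7b2 had 0.0932, 0.0727 and 0.0606 in miR-124a tumours, against 0.0477, 0.0564 and 0.0813 in control tumours (0.30 ± 0.24, adjusted p = 0.452). Cox6b2, another testis isoform, had 0.721, 0.566 and 0.651 in miR-124a tumours, against 0.557, 0.582 and 0.720 in control tumours (0.06 ± 0.14, adjusted p = 0.806), and its sign turned without miR-124a tumour 1 or control tumour 1. All of these overlapped between the groups. Cox8c, a testis isoform too, was well above background on 2 miR-124a arrays and 0 control arrays, with 0.0702, 0.0125 and 0.0287 in miR-124a tumours, against 0.0153, 0.0079 and 0.0217 in control tumours. Those groups overlapped. Of 14 germ cell markers 8 were tested, 6 of them with higher values, and the median was 0.39. The protamine Prm1 fell by 0.52 (adjusted p = 0.0385), a call lost in 10 of 15 alternatives, and Ddx4 and Mael had values higher by 0.67 and 0.47, without overlap (adjusted p = 0.114 and 0.174). Tnp1, Acrv1, Pgk2 and Odf1 were not well above background on any array. The summed signal of the 14 markers was 0.896 to 1.46 in miR-124a tumours and 0.709 to 0.997 in control tumours. Their part in the testis isoform values was not tested.

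Complex V, the ATP synthase, had the lowest median, -0.39 (-0.19 under quantile scaling), over 15 genes. All had a lower value, and 14 were lower without overlap, against 20.6% of all genes and 44.9% of the brightest decile of signal. Atp5e, the epsilon subunit of the catalytic F1 part, had a relative signal of 38.6, 39.2 and 39.1 in miR-124a tumours, against 53.6, 61.9 and 49.96 in control tumours (-0.49 ± 0.11, adjusted p = 0.0626). Atp5g2, one of the genes for the proton-carrying c ring, had 45.1, 45.7 and 46.7 in miR-124a tumours, against 59.5, 72.3 and 60.4 in control tumours (-0.48 ± 0.11, adjusted p = 0.0673). Both genes differed by less among the miR-124a tumours than among the controls.

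Atp5o, the OSCP subunit of the stalk, had 64.3, 71.4 and 64.9 in miR-124a tumours, against 90.5, 110 and 86.1 in control tumours (-0.51 ± 0.12, adjusted p = 0.0745). Atp5g3, another c ring gene, had 46.6, 49.7 and 47.4 in miR-124a tumours, against 62.5, 70.4 and 59.2 in control tumours (-0.42 ± 0.10, adjusted p = 0.0751), and its probes ranged from -0.42 to 0.0056. Atp5g1 had 34.4, 40.6 and 39.5 in miR-124a tumours, against 51.7, 59.5 and 40.7 in control tumours (-0.39 ± 0.16, adjusted p = 0.178), with probes from -0.52 to 0.11. The c ring genes thus shared their direction at the brightest probe of each and not at all probes.

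By role, the 5 genes of the F1 part had a median of -0.42, the 3 c ring genes -0.42 and the 7 genes of the stalk and membrane part -0.35. Atp5b, the catalytic beta subunit, differed by -0.46 and Atp5a1, the alpha subunit, by -0.34. The smallest difference of complex V was that of Atp5j, with 22.2, 23.6 and 23.4 in miR-124a tumours, against 29.3, 32.5 and 23.5 in control tumours (-0.29 ± 0.14, adjusted p = 0.227). Atp5j was also the gene of complex V whose groups overlapped.

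Among the names that are not subunits, the pseudogene Atp5c1-ps differed by -0.57 (adjusted p = 0.0741) and its parent Atp5c1 by -0.38. Whether its probe also binds RNA of Atp5c1 was not tested. Dmac2 and Dmac2l, with 0.01 and -0.03, overlapped between the groups.

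Over the 28 subunit genes with more than 1 tested probe, 66 probes in all, 19 genes were lower at every probe and 9 had probes of both signs. The values above are those of the brightest tested probe.

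The lowest tumour of each group and the highest control were the same in most subunits, while the highest miR-124a tumour was split between tumours 2 and 3. MiR-124a tumour 1 was the lowest of all 6 tumours in 71 of 80 subunit genes, and the highest of its group was tumour 2 in 46 genes and tumour 3 in 32. Control tumour 2 was the highest of all 6 in 73 and control tumour 3 the lowest control in 73. The SD among the miR-124a tumours had a median of 0.08 on the log2 scale and that among the control tumours a median of 0.17.

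**Figure D3:**
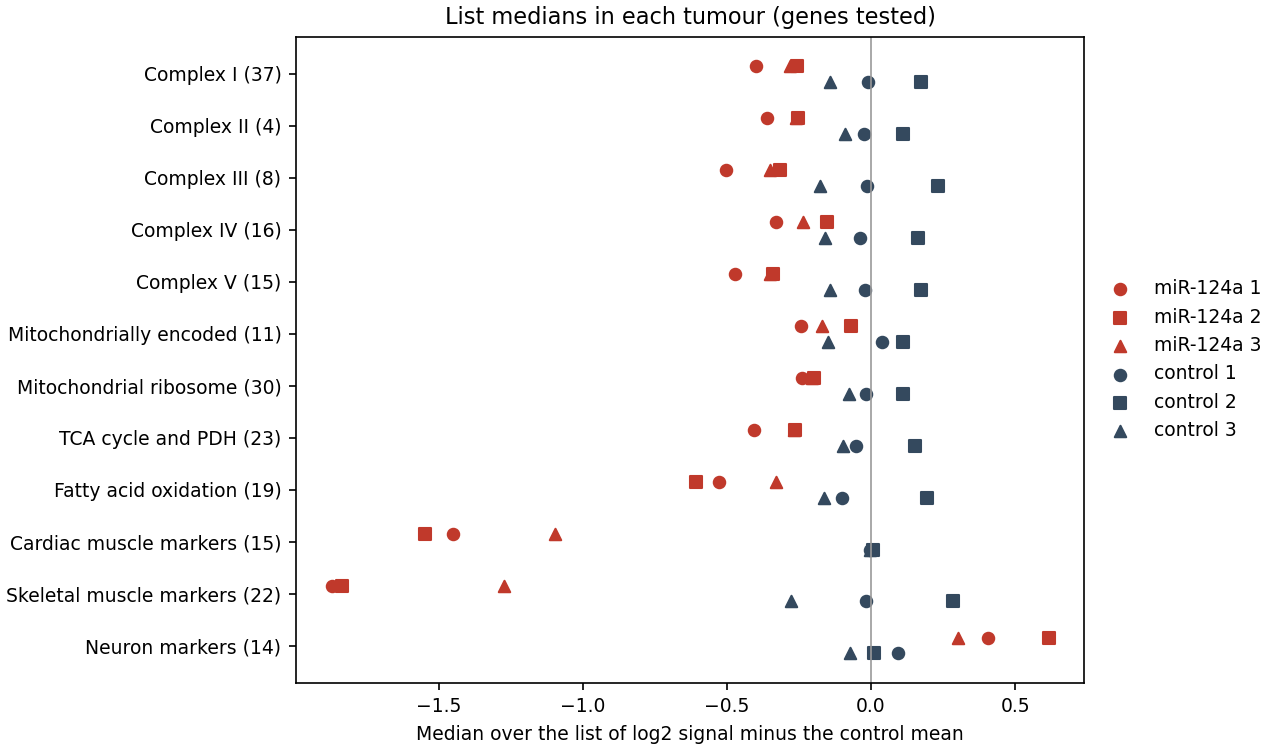
Median over each gene list of the log2 signal minus the control mean, by tumour, with miR-124a above control in each row and the number of genes tested in brackets. The medians of complexes I, II, III and V lie lower in all 3 miR-124a tumours than in any control tumour, those of complex IV overlap narrowly, and the skeletal muscle markers lie furthest from the controls.

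The plot of list medians by tumour summarises this. Over all 83 genes, the median difference from the control mean was -0.43, -0.29 and -0.31 in miR-124a tumours 1 to 3, against -0.02, 0.17 and -0.14 in control tumours 1 to 3. The gap between the groups was thus smaller than the range among the control tumours. The skeletal muscle markers gave -1.87, -1.83 and -1.27 in miR-124a tumours, against -0.02, 0.28 and -0.28 in control tumours. The miR-124a tumours were ordered differently in the lists: tumour 1 stood apart from tumours 2 and 3 in the respiratory chain, and tumour 3 from tumours 1 and 2 in the muscle markers. Among the controls, tumour 2 was highest and tumour 3 lowest in both lists. The part of muscle content in the small differences was not tested.

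The small differences also moved with signal strength. Of the 83 genes, 71 lay in the brightest decile of all genes tested. The 71 genes had a median of -0.35 and 83.1% of them were lower without overlap, against a median of -0.14 and 44.9% over the 2295 genes of that decile. Under quantile scaling, which gives all arrays the same distribution of signal, the median of the 71 genes was -0.17 and that of the brightest decile -0.0013. Of the 83 genes, 50.6% were then lower without overlap, against 17.5% of all genes, and of the 71 genes 53.5%, against 23.3% of the brightest decile. Of the 80 subunit genes, 71 kept a value below 0 under quantile scaling and 69 with normexp background correction. Under quantile scaling 3 genes were called, Cox6a2, Cox8b and Cox7a1 (2.86% of all genes were called lower).

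**Figure D4:**
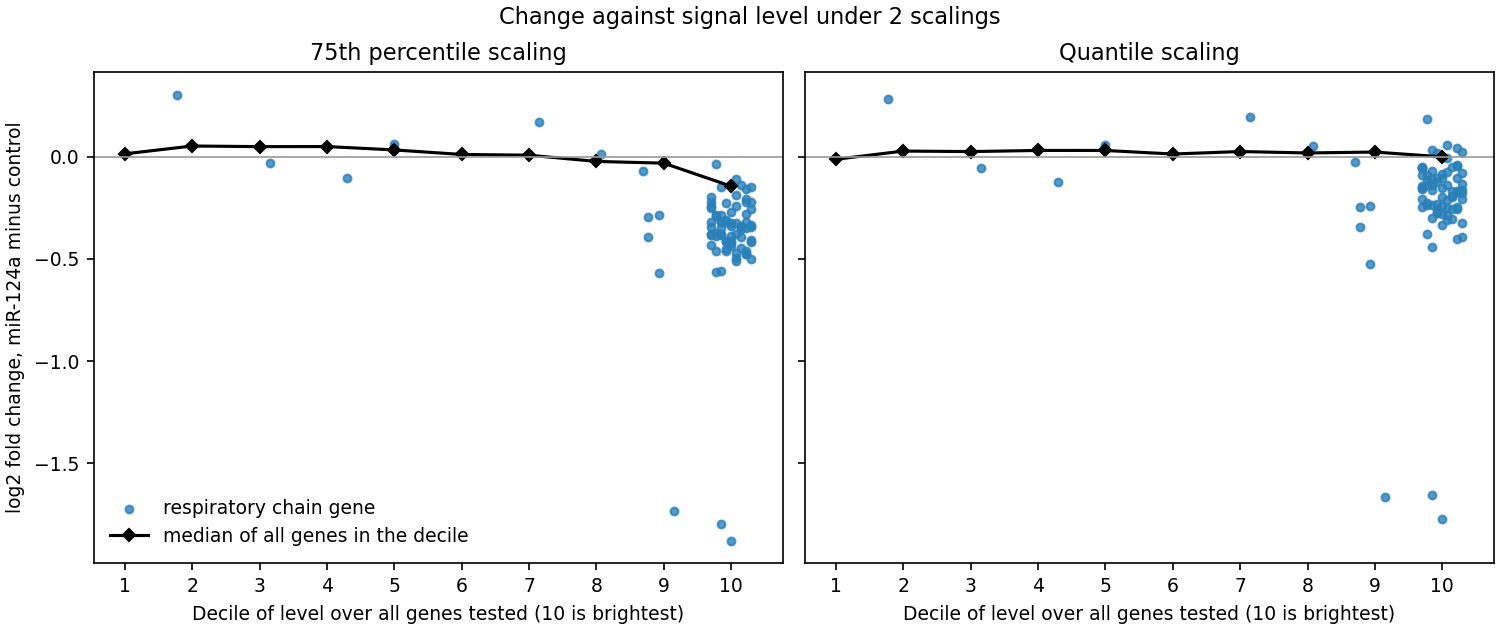
Log2 fold change (miR-124a minus control) of the 83 genes tested (points, spread sideways for visibility) over the deciles of mean signal of all genes tested, with the median of all genes in each decile (line), under 75th percentile scaling and under quantile scaling. In the brightest decile the line lies at -0.14 in the first panel and at -0.0013 in the second, and the points lie mostly below it in both.

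The plot of change by signal decile shows that Cox6a2, Cox7a1 and Cox8b stayed far from the other genes under both scalings, at -1.65, -1.66 and -1.77 under quantile scaling.

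Other genes of mitochondria were read from lists. None of the 11 tested genes of subunits encoded in mitochondrial DNA was called, by limma. An unadjusted p under 0.05 was found for 2 of them, against 27.3% of all genes. All 11 had a lower value, with a median of -0.14, but under quantile scaling the median was 3.08e-05, with 5 lower and 6 higher. The array annotation places the ND3 probe on nuclear chromosome 1 and the other 10 on mitochondrial DNA. ND1, a membrane subunit of complex I, had a relative signal of 6.82, 8.09 and 7.91 in miR-124a tumours, against 9.62, 11.4 and 8.41 in control tumours (-0.36 ± 0.14, adjusted p = 0.168). ND4L (-0.31), ND4 (-0.20, turned under quantile scaling) and ATP8 (-0.18) had the next smallest p. COX1, the catalytic subunit of complex IV, differed by -0.06 and CYTB, of complex III, by -0.10, and both overlapped between the groups.

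Of 7 further nuclear genes of the chain, outside the naming pattern, 0 were called by limma (3 at an unadjusted p under 0.05) and 4 were lower without overlap, with a median of -0.23 (-0.10 under quantile scaling). Over all genes, 27.3% had an unadjusted p under 0.05 and 20.6% were lower without overlap. Cyc1, cytochrome c1 of complex III, had 23.8, 24.5 and 24.5 in miR-124a tumours, against 32.9, 38.2 and 29.6 in control tumours (-0.46 ± 0.12, adjusted p = 0.0792). Ndufab1, the acyl carrier protein of complex I, differed by -0.42 and Cycs, somatic cytochrome c, by -0.37.

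Fatty acid oxidation, which feeds electrons to the chain, had 19 genes, all tested. Its median was -0.53 (-0.43 under quantile scaling), 18 genes were lower without overlap, and 1 was called: Acads, the short-chain acyl-CoA dehydrogenase, fell by 1.00 ± 0.18 (adjusted p = 0.0434). Over all genes, 20.6% were lower without overlap and 2.75% were called lower. Acads had a relative signal of 0.751, 0.716 and 0.906 in miR-124a tumours, against 1.42, 2.00 and 1.39 in control tumours. Its call was lost in 8 of 15 alternatives, including each of the 6 that left out 1 tumour (adjusted p 0.0233 to 0.150 over the 15). Acaa2, a thiolase, differed by -0.87 (adjusted p = 0.0594), Acsl1, an acyl-CoA synthetase, by -0.94 (adjusted p = 0.0626) and Cpt2, of the carnitine shuttle, by -0.53 (adjusted p = 0.0741).

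In the citric acid cycle and pyruvate dehydrogenase list 0 of 23 were called by limma (15 at an unadjusted p under 0.05), with a median of -0.30, and Idh2 (-0.67), Pdk2 (-0.90), Fh1 (-0.46) and Suclg1 (-0.39) had the smallest p. The mitochondrial ribosome had 0 of 30 called (11 at an unadjusted p under 0.05) and a median of -0.21, with Mrpl15 at -0.42, Mrpl1 at -0.38, Mrpl17 at -0.41 and Mrpl18 at -0.34. The carriers and membrane proteins had 0 of 24 called (11 at an unadjusted p under 0.05) and a median of -0.21. Slc25a4, the heart and muscle form of the ADP/ATP carrier, differed by -0.60 and Slc25a5, its widely expressed form, by -0.43, and Timm23 and Phb2 by -0.41 and -0.45. These 3 lists kept a negative median under quantile scaling (-0.26, -0.18 and -0.14). Their counts at an unadjusted p under 0.05 stand against 27.3% of all genes.

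The respiratory chain assembly factors had 0 of 47 called by limma and a median of -0.14 (-0.10 under quantile scaling). An unadjusted p under 0.05 was found for 8 of the 47, against 27.3% of all genes. Taco1, a translational activator of COX1, differed by -0.55 (adjusted p = 0.0522). Lyrm7, an assembly factor of complex III, was well above background on 3 miR-124a arrays and 0 control arrays. It thus entered the test through the miR-124a tumours, at 1 of its 4 probes, and was not called (adjusted p = 0.0550 by limma). Set against the detection floor of the control arrays, it was 1.86-fold higher at that probe. That value carries no sampling error and is not a limit on the difference. Over 14 alternatives its log2 fold change ran from 0.13 to 1.14. For the value of 1.86, each control array entered with the dimmest signal well above background on it, or with Lyrm7's own where that was brighter. Lyrm7 read 0.0317, 0.0528 and 0.0428 in miR-124a tumours and 0.0213, 0.0209 and 0.0226 in control tumours. The copper chaperone Sco1 differed by -0.39 and Coa4 by -0.27. Among 18 regulators of mitochondrial biogenesis 0 were called (5 at an unadjusted p under 0.05, against 27.3% of all genes) and the median was -0.05. Esrra stood at -0.43, Ppard at -0.41, Ppara at -0.61 and Tfam at -0.25.

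Brown and white adipocytes, in 1 list, had 13 of 15 markers tested and 1 called: the fatty acid transporter Cd36 fell by 0.81 (adjusted p = 0.0362), a call lost in 7 of 15 alternatives (0.0260 to 0.148 over the 15). Ucp1, the uncoupling protein of brown fat, had a relative signal of 0.0330, 0.0149 and 0.0252 in miR-124a tumours, against 0.114, 0.125 and 0.0578 in control tumours (-2.01 ± 0.39, adjusted p = 0.0532). It was well above background on 1 miR-124a array and all 3 control arrays, so it entered the test through the controls. Lpl differed by -0.70, with probes from -0.76 to 0.20, and Fabp4 by -1.01. Of the 13 markers tested, 12 had a lower value, 7 of them without overlap, and the median was -0.70 (-0.66 under quantile scaling). Over all genes, 20.6% were lower without overlap and 2.75% were called lower. Prdm16 had a higher value (0.21) and Ppargc1a differed by -0.02, both with overlapping groups. The summed signal of the 15 adipocyte markers was 9.94 to 11.1 in miR-124a tumours and 13.6 to 17.9 in control tumours. None of the 14 neuron markers was called by limma. All 14 had higher values, with a median of 0.45, and 9 had an unadjusted p under 0.05, against 27.3% of all genes. In other settings 3 were called higher under quantile scaling, 6 with normexp and quantile scaling, 4 with variance trend and 1 with the filter on all 6 arrays. Of all genes, 847, 1538, 1723 and 764 were called in these settings, in either direction. With 1 tumour left out, 0 neuron markers were called. Tubb3 differed by 0.57, Elavl3 by 0.50, Map2 by 0.42 and Stmn2 by 0.43, and the summed signal was 229 to 288 in miR-124a tumours and 168 to 198 in control tumours. The part of these cell types in the respiratory chain values was not tested.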

How the data were processed

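Messenger RNA of 6 teratomas was measured on 1-colour (Cy3) Agilent arrays. The deposited spot intensity was, per the file headers, background-subtracted and detrended within each array by Agilent Feature Extraction 11.5.1.1, a version also given in the submitters' processing notes, with no scaling across arrays. A table of log2 values was also deposited by the authors. Set against the scanner files, its columns are the log2 intensity shifted by a constant per array (SD of the difference 0.0029), not centred per probe and in the direction of signal, with medians of -2.97, -2.99 and -2.98 for miR-124a 1 to 3 and -2.98, -3.07 and -2.98 for control 1 to 3. It served as an alternative.

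From the processed intensity the log2 was taken and the 75th percentile of the array's non-control spots subtracted. Spots of a probe were averaged, without 22 probes that carried outlier flags. A probe entered the test if all 3 arrays of either group had it well above background, and a gene was read at its brightest tested probe. Names came from GRCm38.p6 RefSeq by accession (32979 probes), symbol (10223) or older symbol (520), and 12861 probes kept the name in the file. Groups were compared with limma 3.58.1 (lmFit and eBayes, R 4.3.3) over 22946 genes, without covariates, with Benjamini-Hochberg adjustment. The fit was checked on simulated data. Isoform ratios were compared with exact two-sided permutation tests. Figures were drawn with matplotlib 3.10.9. Each array is the tumour of a different mouse, and the number of arrays limits the precision.

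The genes described and the lists were chosen with earlier results of these data known. Named genes are the isoform pairs, the 4 genes of each complex with the smallest p and the 1 with the most positive change, every called gene, and up to 4 genes of each other list. Ndufv1, Ndufs7, Ndufv2, Ndufs3, Ndufa11, Ndufa5, Ndufs6, Ndufc2, Uqcrq, Cox5a, Cox6c, Cox7a2l, Atp5a1, Atp5b, Atp5c1, COX1, CYTB, ND3, Myl4, Hcn4, Ryr2, Myh7 and Nppa were named after their values were seen. The values of 1 gene that the rule names are not reported here. Alternatives tried were quantile scaling alone and after normexp correction (offset 50), the authors' table, testing dim probes too or only those detected on all 6 arrays, averaging a gene's probes, a replicate block, variance trend with robust estimation, leaving out each tumour, and, chosen after seeing the data, the 75th percentile over probes.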

Additional observations from a re-analysis of the deposited data

How the results depend on the processing

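Of the 83 genes, 2 were called. The count was 2 with the authors' table, the mean of a gene's probes or the percentile over probes (718, 731 and 730 of all genes). It was 3 under quantile scaling (847 of all genes), 6 with normexp and quantile scaling (1538) and 4 with the filter on all 6 arrays (764). Without a filter on dim probes it was 0 (96 of all genes, against 742 in the main fit). With variance trend and robust estimation it was 18 (1723 of all genes). Leaving out 1 tumour gave 0 to 3. Without miR-124a tumour 1 or 2, or control tumour 1 or 2, the count was 0. Of all genes, 1, 0, 13 and 0 were then called, in that order. Without miR-124a tumour 3 the count was 3 (375 of all genes), and without control tumour 3 it was 1 (353 of all genes). Over all 15 alternatives the adjusted p of Cox6a2 ran from 0.0168 to 0.140 and that of Cox8b from 0.0201 to 0.145, and their log2 fold changes from -2.01 to -1.55 and from -2.17 to -1.63.

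The median of the 83 genes moved to -0.16 under quantile scaling and -0.17 with normexp, and ran from -0.42 (without control 3) to -0.26 (without control 2) when a tumour was left out. The count of genes lower without overlap was 63, with 42 under quantile scaling, 38 with normexp and quantile scaling together, and 76 without control 3.

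The replicate numbers of the labels did not pair the tumours: deviations of same-numbered tumours correlated at -0.16, -0.04 and -0.06, and 0 of the 3 numbers correlated best with itself. With the replicate block 0 of the 83 genes, and 0 of all genes, were called.

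Signs turned under quantile scaling in Ndufa5 (0.0433), Ndufs6 (0.0303), Ndufc2 (0.0586), Cox8a (0.0160), Cox7a2l (0.0217), Cox6a1 (0.182) and ND4 (3.08e-05). With normexp they turned in Ndufv3 (0.0179), Ndufa5 (0.050005), Ndufs6 (0.0489), Ndufc2 (0.0664), Cox8a (0.0198), Cox6c (0.00793), Cox7a2l (0.0275), Cox6a1 (0.163) and ND4 (0.00299). The mean of probes turned Ndufv3 (0.0267) and the ratio of Atp5g1 to Atp5g3 (-0.0610). With 1 tumour left out, values that turned in at least 1 case ran from -0.0205 to 0.176 for Cox6b2, from -0.0533 to 0.145 for Dmac2, from -0.106 to 0.0541 for Dmac2l, from -0.108 to 0.00347 for Cox6a1 and from -0.0727 to 0.0764 for the ratio of Atp5g1 to Atp5g3. The other isoform ratios kept their direction under all 10 alternatives run for them, those of Cox6a2, Cox7a1 and Cox8b within -2.00 to -1.56, -1.78 to -1.31 and -1.96 to -1.43. Of 2147 recomputed values over 146 results, 1956 kept their direction and side of the threshold or moved little, 85 lost a call, 65 gained one, 28 turned and 13 moved. The cause of these changes was not tested, apart from fewer tumours where 1 was left out. With 3 tumours a group, and low signal over background in Cox7b2 and Cox8c, small differences in these genes could not be resolved.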
